A study of Mus musculus with 36 samples.

Results

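The genes described here encode the endogenous opioid peptides and their receptors: the precursor genes Pdyn, Penk1 (now named Penk) and Pnoc, and the receptor genes Oprk1, Oprm1, Oprd1 and Oprl1. Members were taken as the array probes annotated with one of these 7 symbols. They comprised 9 of the 45281 probes, carried by 6 of the 7 genes: 3 probes for Oprl1, 2 for Pdyn and 1 each for Penk1, Pnoc, Oprk1 and Oprm1. Oprd1, the delta receptor gene, had no probe under that symbol and is not analysed here.

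The study asked how repeated dosing with histone deacetylase (HDAC) inhibitors, drugs that raise histone acetylation, alters gene expression in the mouse brain, and measured RNA on 36 Illumina MouseWG-6 arrays. All mice were male (C57BL/6J in the labels, C57BL/6 and 11 weeks old in the methods) and received an intraperitoneal injection on each of 10 days, with brains taken 1 h after the last. The treatments were vehicle at 7.5 mL/kg (10% DMSO made up with equal parts, 45% each, of PEG-400 and saline), Cpd-60 at 45 mg/kg in 7.5 mL/kg, SAHA at 25 mg/kg in 5 mL/kg and CI-994 at 10 mg/kg in 5 mL/kg. The 6 mice of each treatment gave 3 pools of RNA from 2 mice, here pools 1, 2 and 3, and each pool supplied 1 array from each of 3 regions, the medial prefrontal cortex (PFC), the nucleus accumbens (NAc) and the hippocampus (HIP). Vehicle mice therefore did not share the injection volume of the SAHA and CI-994 mice, and the doses of the drugs differ, so the drugs are set side by side and not tested against each other.

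Opioid precursors are cut in secretory granules into short peptides: dynorphins from the Pdyn product, enkephalins from the Penk product and nociceptin from the Pnoc product. Their receptors couple to inhibitory Gi/o proteins, which lower cyclic AMP, open inwardly rectifying potassium channels and close calcium channels. In the striatum, of which the NAc is the ventral part, dynorphin is made mainly by medium spiny neurons that carry the D1 dopamine receptor and enkephalin mainly by those that carry the D2 receptor.

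Because dynorphin expression carries most of the values that follow, the promoter windows of Pdyn are given (RefSeq, GRCm38.p6, from 250 bases before to 50 after each annotated start, 5′ to 3′ on the minus strand). The windows are chr2:129699889-129700188 for start 1 and chr2:129698609-129698908 for start 2. Capitals mark a CCAAT box, read here on the opposite strand.
Pdyn start 1: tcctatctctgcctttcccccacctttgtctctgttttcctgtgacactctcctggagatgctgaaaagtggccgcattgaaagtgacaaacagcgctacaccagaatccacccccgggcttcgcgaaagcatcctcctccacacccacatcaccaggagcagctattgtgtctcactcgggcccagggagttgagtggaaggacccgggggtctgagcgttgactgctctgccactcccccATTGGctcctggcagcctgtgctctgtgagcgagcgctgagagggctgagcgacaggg
Pdyn start 2: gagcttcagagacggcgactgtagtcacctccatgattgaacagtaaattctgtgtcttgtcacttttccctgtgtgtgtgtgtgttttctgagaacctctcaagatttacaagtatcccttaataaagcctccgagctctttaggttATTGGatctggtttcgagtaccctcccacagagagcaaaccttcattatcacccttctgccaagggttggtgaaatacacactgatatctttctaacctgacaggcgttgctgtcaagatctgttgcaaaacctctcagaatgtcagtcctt
The GC content was 59% in the window of start 1 and 44.3% in that of start 2. A search for CCAAT on either strand found the 1 match shown in each, where 37.4% of 32851 RefSeq promoter windows of this length hold the motif. The search for the cyclic AMP response element half-site TGACG (in 20.8% of all windows) and for the AP-1 site TGANTCA (in 7.81%) found neither in these windows. Which of the transcripts the array probes read was not determined, and matching letters are a description, not evidence of a bound factor.

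Levels are given as log2 of the quantile-normalized fluorescence intensity. Levels of different probes are not compared, since brightness also depends on the probe. Raw array medians ranged from 82.2 to 108.3 intensity units, and 31.9% to 43.3% of probes were detected above background (detection p of at most 0.01). Replicate arrays correlated at r = 0.970 to 0.994. Defining markers followed the labelled regions in all 36 arrays: the D1 receptor gene Drd1a stood at 10.6 to 11.2 in NAc and at most 7.90 elsewhere, the cortical transcription factor gene Tbr1 at 9.10 to 9.45 in PFC and at most 8.05 elsewhere, and the dentate gyrus gene C1ql2 at 10.5 or more in HIP and at most 7.69 elsewhere. The arrays lay on 6 BeadChips (glass slides) of 6 arrays, and each region filled 2 of its own, so region and BeadChip cannot be told apart beyond what a random BeadChip term in the fit can absorb. In every region the first BeadChip held pools 1 and 2 of vehicle and Cpd-60 and pool 1 of SAHA and CI-994, and the second held the remaining 6 pools.

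Both Pdyn probes were highest in NAc. In vehicle mice, the brighter probe (ILMN_2783873) read 11.86, 12.01 and 11.95 in the NAc pools, 8.64, 8.69 and 9.07 in PFC, and 8.21, 8.42 and 8.41 in HIP. Every NAc pool exceeded every pool of the other regions, and the HIP pools all lay under the PFC pools. NAc exceeded PFC by 3.14 (SE 0.11), an 8.81-fold difference, and HIP by 3.59 (SE 0.11), a 12.1-fold difference, with adjusted p = 9.86e-08 and 3.53e-08 (limma, Benjamini-Hochberg over 22606 probes, n = 3 pools per region). The dimmer probe (ILMN_2767871) read 9.03, 9.28 and 9.67 in NAc, 7.23, 7.37 and 7.20 in PFC, and 7.13, 7.04 and 7.02 in HIP. Its NAc excess was 4.17-fold over PFC and 4.79-fold over HIP, with adjusted p = 4.32e-06 and 2.13e-06. HIP was below PFC for the brighter probe by 1.37-fold (log2 difference −0.46, SE 0.11, adjusted p = 0.0134), and for the dimmer by 1.15-fold, which did not pass (−0.20, adjusted p = 0.30). The brighter probe's HIP-PFC call was lost without vehicle HIP pool 1 (adjusted p = 0.0549).

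Penk1, the enkephalin precursor gene, was also highest in NAc, with a wide spread there. Its vehicle NAc pools read 8.92, 9.20 and 10.37, against 6.74, 6.91 and 6.83 in PFC and 7.09, 6.94 and 6.98 in HIP. Pool 3, the pool on the second NAc BeadChip, stood more than a log2 unit above the other NAc pools, yet even the lowest NAc pool was far above both other regions. NAc exceeded PFC by 2.67 (SE 0.29), or 6.37-fold, and HIP by 2.49 (SE 0.29), or 5.63-fold, with adjusted p = 0.000134 and 0.000209. PFC and HIP differed by 0.18 (SE 0.29, adjusted p = 0.689).

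Pnoc, the nociceptin precursor gene, gave little signal. Its probe was detected in 1 of 36 arrays, a SAHA NAc pool, and its levels over all arrays ran from 6.43 to 6.73. Medians were 6.59 in PFC, 6.60 in NAc and 6.53 in HIP, with overlapping ranges, and the probe was not tested because it met the detection criterion (detection p of at most 0.2 in all 3 pools of a group) in no group.

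Among the receptors, Oprk1, the kappa receptor gene whose product binds dynorphin, had the NAc pattern. Vehicle NAc pools read 7.39, 7.62 and 7.47, against 6.65, 6.63 and 6.70 in PFC and 6.40, 6.57 and 6.63 in HIP. The probe was detected in all 12 NAc arrays, in 2 of 12 PFC arrays and in 0 of 12 HIP arrays, so the vehicle PFC and HIP levels are bounds. Against the detection floor NAc was at least 1.68-fold higher than PFC and at least 1.74-fold higher than HIP, bounds that were not tested. The measured differences were 0.84 and 0.96 (SE 0.08 each, limma, adjusted p = 5.5e-05 and 2e-05).

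Oprl1, the nociceptin receptor gene, was detected by all 3 of its probes in nearly every array, but the probes did not share a regional order. The brightest (ILMN_2683352) read 7.77, 7.76 and 7.76 in vehicle PFC, 7.78, 7.60 and 7.33 in NAc, and 7.52, 7.51 and 7.59 in HIP, and no regional difference passed (lowest adjusted p = 0.125, HIP against PFC). A second probe (ILMN_2807572) read 6.79, 6.93 and 7.04 in PFC, 6.87, 6.93 and 7.42 in NAc, and 7.61, 7.63 and 7.41 in HIP. By this probe HIP was the highest region: 1.54-fold over PFC (log2 difference 0.63, SE 0.14, adjusted p = 0.00814) and 1.39-fold over NAc (0.47 higher, SE 0.14, adjusted p = 0.0383), although NAc pool 3 overlapped the HIP pools. The NAc-HIP call was lost with the pool as a block (adjusted p = 0.0517), with BeadChip as a random block (0.102) and in 4 of the 6 fits that left out 1 pool. The remaining probe (ILMN_1235369) stayed between 6.82 and 7.30 in all 36 arrays, and no regional difference of it passed. Over the 36 arrays the second probe ran opposite to the other two (Pearson r = −0.62 with ILMN_2683352 and −0.586 with ILMN_1235369), while those correlated at 0.716. The arrays share region and BeadChip, so these are descriptions. Oprl1 therefore has no single regional order here.

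Oprm1, the mu receptor gene, was detected in 0 of 36 arrays. Its probe read 6.26 to 6.68 over all arrays, with medians of 6.49 in PFC, 6.50 in NAc and 6.56 in HIP. It was not tested, and no statement about the mu receptor's regional level can be drawn from it.

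**Figure D1:**
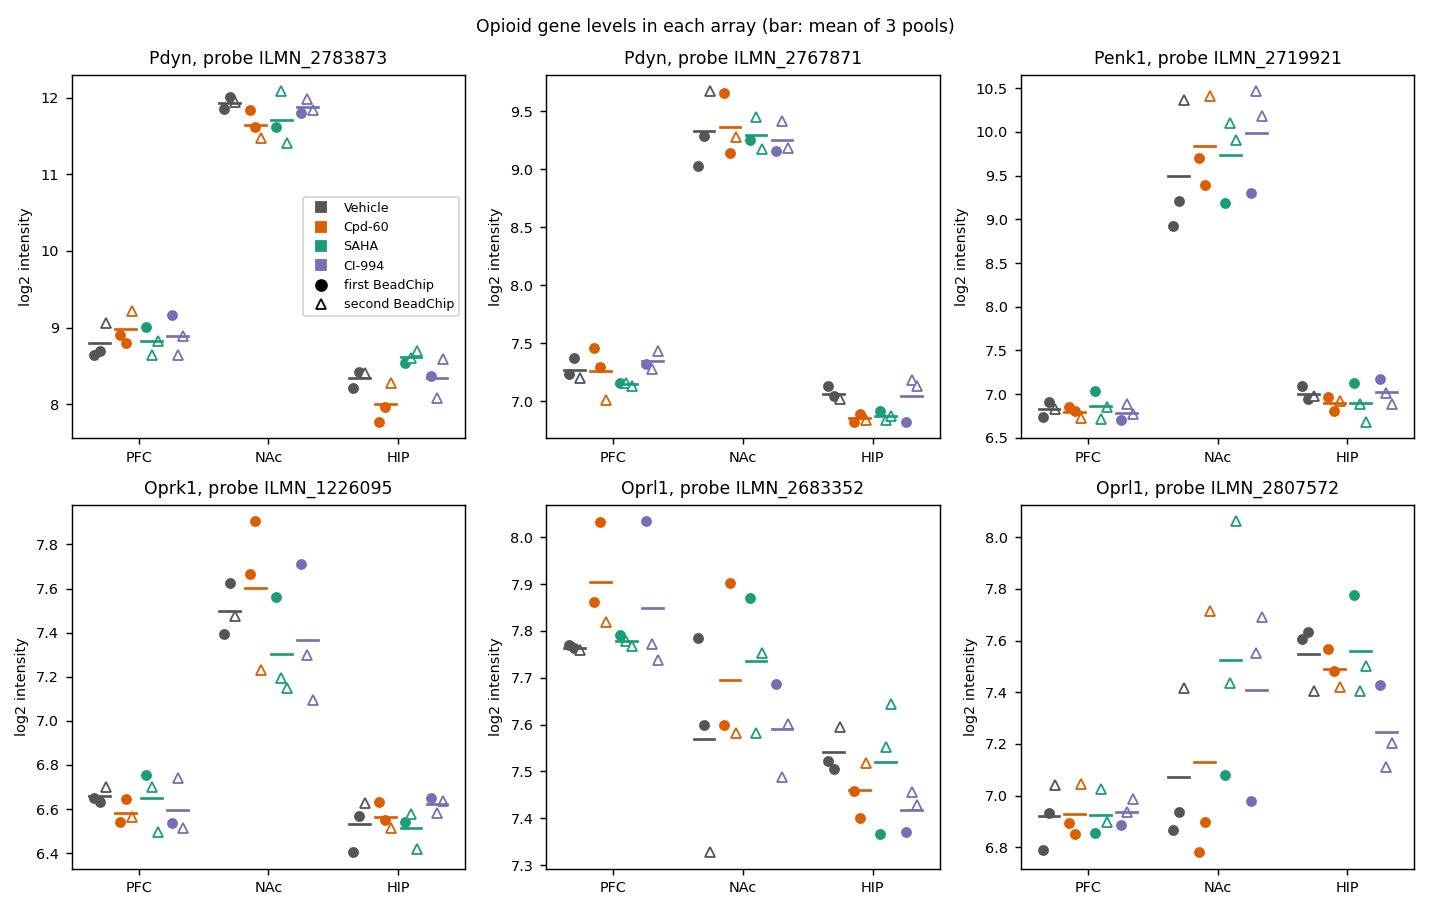
Log2 quantile-normalized intensity of 6 opioid gene probes in each array, by region and treatment; each point is 1 pool, bars are means of 3 pools, filled circles lie on the first BeadChip of the region and open triangles on the second. Pdyn, Penk1 and Oprk1 are highest in NAc under every treatment, and the NAc Penk1 values of the second BeadChip (9.90 to 10.47) lie above those of the first (8.92 to 9.70).

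In all, under vehicle 4 of the 9 member probes (7 of which were tested) were called between NAc and PFC, all higher in NAc, where 20.8% of all tested probes were called and 9.59% were called higher. Between NAc and HIP 5 were called, 4 of them higher in NAc, against 17.9% of all tested probes and 9.6% higher. Between HIP and PFC 2 were called, against 27.3% of all tested probes, a share near that background. In tissue RNA a gene's level reflects both how many cells express it and how much each holds, which cannot be told apart.

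The NAc excess of Pdyn, Penk1 and Oprk1 was seen again under each drug, in mice other than the vehicle mice. The vehicle calls of Oprl1 by ILMN_2807572 were not. Its NAc minus HIP difference was −0.36 under Cpd-60, −0.03 under SAHA and 0.16 under CI-994 (limma, adjusted p = 0.344, 0.942 and 0.661). The brighter Pdyn probe read 11.84, 11.61 and 11.47 in the Cpd-60 NAc pools, 11.62, 12.09 and 11.41 under SAHA, and 11.80, 11.99 and 11.84 under CI-994. No PFC or HIP array of any treatment exceeded 9.22. NAc exceeded PFC by 2.67 under Cpd-60, 2.89 under SAHA and 2.98 under CI-994, that is 6.35-, 7.39- and 7.90-fold, and HIP by 3.64, 3.10 and 3.53, that is 12.5-, 8.57- and 11.6-fold. All passed (highest adjusted p = 1.24e-05). The dimmer probe passed in the same 6 comparisons, with NAc excesses of 3.76- to 5.68-fold.

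Penk1 in NAc read 9.70, 9.39 and 10.41 under Cpd-60, 9.19, 10.10 and 9.90 under SAHA, and 9.30, 10.47 and 10.18 under CI-994. In every treatment the highest pools were those on the second BeadChip. NAc exceeded PFC by 8.24-, 7.28- and 9.16-fold and HIP by 7.67-, 7.11- and 7.77-fold under Cpd-60, SAHA and CI-994 (highest adjusted p = 0.000113).

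Oprk1 in NAc read 7.67, 7.90 and 7.23 under Cpd-60, 7.56, 7.20 and 7.15 under SAHA, and 7.71, 7.30 and 7.10 under CI-994. NAc was above PFC by 1.02, 0.65 and 0.77 and above HIP by 1.04, 0.79 and 0.74 on the log2 scale (adjusted p from 0.00181 to 0.00922), and its NAc pools overlapped no PFC or HIP pool of the same treatment. As bounds these were at least 1.79-fold over PFC and 1.86-fold over HIP for Cpd-60, and at least 1.41- and 1.58-fold over HIP for SAHA and CI-994. The probe was detected in 1 of 3 PFC arrays under SAHA and under CI-994, where the measured difference stands. Under Cpd-60 and SAHA this probe entered the fit only through its NAc arrays, so that a difference there follows in part from the criterion.

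Under each drug 3 of the 9 member probes, the Pdyn pair and Penk1, were called higher in NAc than in PFC and than in HIP. Oprk1 was also called, which adds 1 under CI-994; its calls under Cpd-60 and SAHA are not counted, because of the criterion. Among all tested probes, 11.2%, 15% and 17.2% were called between NAc and PFC under Cpd-60, SAHA and CI-994 (4.93%, 6.57% and 7.64% higher in NAc), and 9.58%, 12.9% and 10.4% between NAc and HIP (5.1%, 6.78% and 5.36% higher in NAc). With BeadChip as a random block all of these NAc calls, vehicle included, still passed (highest adjusted p = 0.0153, Oprk1 under CI-994 against HIP).

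HIP and PFC differed less. Under Cpd-60 the brighter Pdyn probe was 1.97-fold lower in HIP (7.77, 7.96 and 8.28 against 8.91, 8.80 and 9.22, adjusted p = 0.00527), a call that held in all 6 fits leaving out 1 pool. Under CI-994 it was 1.46-fold lower (8.37, 8.07 and 8.59 against 9.16, 8.64 and 8.89, adjusted p = 0.0469), a call lost in 4 of 6 such fits. Under SAHA the difference was −0.21 and did not pass, while the dimmer probe was 1.21-fold lower (adjusted p = 0.0298), a call lost whichever pool was left out. The brightest Oprl1 probe was lower in HIP than PFC under Cpd-60 by 1.36-fold (adjusted p = 0.0183, lost in 4 of 6 fits leaving out 1 pool) and under CI-994 by 1.35-fold (adjusted p = 0.016, lost without CI-994 HIP pool 1). In the same comparisons Oprl1 by ILMN_2807572 was higher in HIP without overlap, by 1.47-fold under Cpd-60 (adjusted p = 0.0958) and 1.24-fold under CI-994 (adjusted p = 0.237), and did not pass. Under SAHA that probe was 1.55-fold higher in HIP, also without overlap, and did not pass (limma, adjusted p = 0.0567). Member calls between HIP and PFC were 2, 1 and 2 under Cpd-60, SAHA and CI-994, where 16.9%, 21.9% and 14.2% of all tested probes were called.

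**Figure D2:**
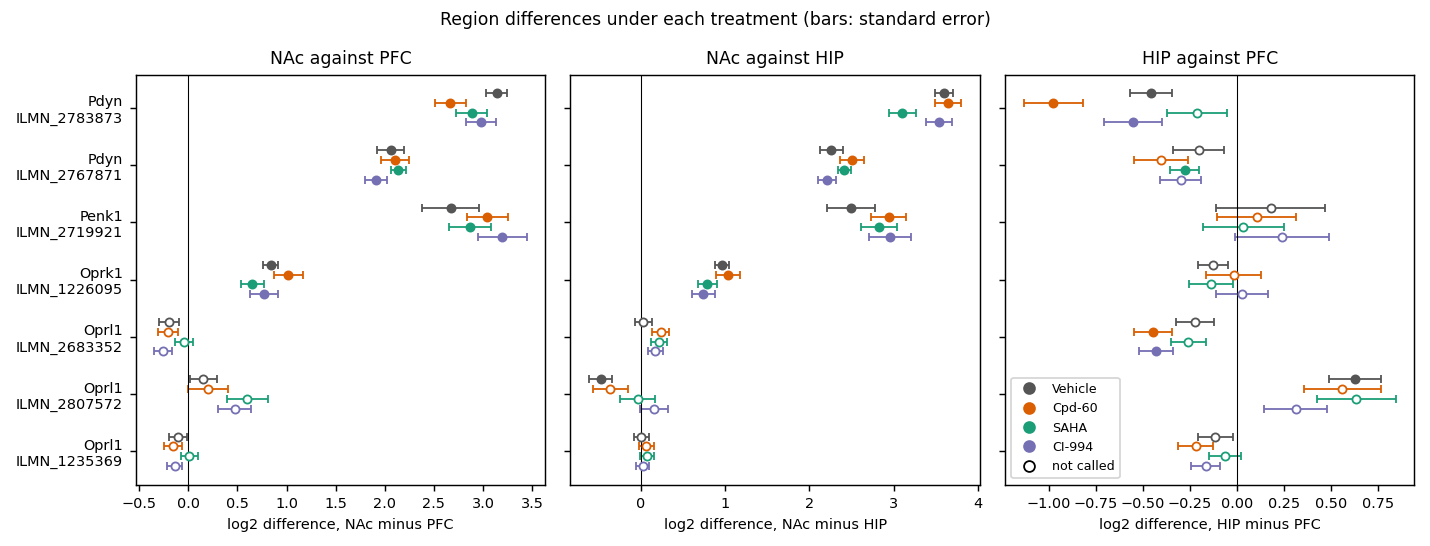
Log2 difference between regions for each tested opioid gene probe under each treatment, with bars for the standard error (3 pools per group); filled points passed an adjusted p of 0.05 and open points did not. The Pdyn, Penk1 and Oprk1 points lie to the right of 0 in both NAc panels under all 4 treatments, and the Oprl1 probes lie on both sides of 0.

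No member probe differed between a drug and vehicle in any region after adjustment. Each region's 3 contrasts share the same 3 vehicle arrays. Of 63 tests (7 probes, 3 drugs, 3 regions) 0 passed (limma, Benjamini-Hochberg over all tested probes, lowest adjusted p = 0.526), as did 0% of all tested probes in each of the 9 comparisons. At an unadjusted p under 0.05, 4 of the 63 passed, of which 2 also reached a 1.2-fold difference, and in 7 the treated pools did not overlap the vehicle pools. Among all tested probes the share at an unadjusted p under 0.05 was 5.19%, 2.25% and 3.98% in PFC under Cpd-60, SAHA and CI-994, 4.77%, 2.05% and 1.99% in NAc, and 5.26%, 9.37% and 3.24% in HIP. The share without overlap was 9.68%, 8.68% and 10.7% in PFC, 9.38%, 7.11% and 7.61% in NAc, and 12.2%, 19.3% and 9.58% in HIP.

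In NAc the members gave 0 tests at an unadjusted p under 0.05, and 1 of the 21 did not overlap. It was the brighter Pdyn probe under Cpd-60: all 3 treated pools (11.84, 11.61 and 11.47) lay below the vehicle pools (11.86, 12.01 and 11.95), a difference of −0.30 with a 95% interval from −0.64 to 0.04, where 9.38% of all tested probes did not overlap. The dimmer Pdyn probe differed by 0.03 (interval −0.35 to 0.41) in the same pools. Under SAHA and CI-994 the brighter probe differed by −0.23 (−0.57 to 0.11) and −0.06 (−0.40 to 0.27). The interval under Cpd-60 reaches down to 0.644-fold of vehicle, so a p that misses the threshold does not show equal levels.

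For Penk1 in NAc the differences from vehicle were 0.34 under Cpd-60 (95% interval −0.62 to 1.29), 0.23 under SAHA (−0.72 to 1.19) and 0.48 under CI-994 (−0.47 to 1.44). These were the widest intervals of any member, allowing from 0.606-fold to 2.71-fold of vehicle. The treated groups did not hold the same number of pools on each BeadChip as vehicle: SAHA and CI-994 had 2 of 3 pools on the second, vehicle and Cpd-60 1 of 3. With BeadChip as a block the differences became 0.34 (SE 0.13, unadjusted p = 0.0262, adjusted p = 0.564), −0.10 and 0.15. Within the first BeadChip alone they were 0.49, 0.13 and 0.24, and within the second 0.04, −0.37 and −0.05, from 1 or 2 arrays a group and with no test. The SAHA and CI-994 differences thus changed sign between BeadChips.

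Oprk1 in NAc differed from vehicle by 0.10, −0.20 and −0.13 under Cpd-60, SAHA and CI-994, with overlapping pools in each. Oprl1 by ILMN_2807572 differed by 0.06, 0.45 and 0.34, also with overlapping pools. With BeadChip as a block the last 3 values were 0.06, 0.23 and 0.11.

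In PFC all 21 differences lay within 0.18 of 0 on the log2 scale and none had an unadjusted p under 0.05. The brightest Oprl1 probe under Cpd-60 (7.86, 8.03 and 7.82 against 7.77, 7.76 and 7.76) and the dimmer Pdyn probe under SAHA (7.16, 7.16 and 7.13 against 7.23, 7.37 and 7.20) had no overlap with vehicle, where 9.68% and 8.68% of all tested probes had none.

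HIP held all 4 tests at an unadjusted p under 0.05. Under Cpd-60 the brighter Pdyn probe read 7.77, 7.96 and 8.28 against 8.21, 8.42 and 8.41 in vehicle, and the dimmer 6.82, 6.89 and 6.84 against 7.13, 7.04 and 7.02. The dimmer probe's pools did not overlap, and pool 3 of the brighter one did. The differences were −0.34 (SE 0.14, 1.27-fold lower, unadjusted p = 0.0284, adjusted p = 0.918) and −0.21 (unadjusted p = 0.0252, adjusted p = 0.916). Within the first BeadChip they were −0.45 and −0.23, and within the second −0.13 and −0.18. Neither passed by a Tukey test like that of the methods, run here with the CI-994 arrays added. The brighter probe was past an unadjusted p of 0.05 without vehicle HIP pool 1 or Cpd-60 HIP pool 3, and not without any of the other 4 pools. The dimmer was not past it without Cpd-60 HIP pool 1 or 3 or vehicle HIP pool 1. In this comparison 1.53% of all tested probes had an unadjusted p under 0.05 with a 1.2-fold difference, and 12.2% did not overlap.

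Under SAHA the Pdyn probes went opposite ways in HIP. The brighter read 8.54, 8.60 and 8.69, all above vehicle (difference 0.26, unadjusted p = 0.0815), and the dimmer read 6.92, 6.84 and 6.87, all below vehicle (difference −0.19, unadjusted p = 0.0404, adjusted p = 0.526). The SAHA HIP arrays detected 32.1% to 34.4% of probes, against 38.0% to 39.7% in the vehicle HIP arrays, and 19.3% of all tested probes did not overlap in this comparison; the part of detection in the Pdyn values was not tested. Leaving out 1 pool at a time gave 0.19 to 0.30 for the brighter probe and −0.22 to −0.16 for the dimmer. With both probes read as Pdyn, no direction can be given under SAHA.

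Under CI-994 the Pdyn probes differed from vehicle by 0.00 (−0.30 to 0.30) and −0.02. The remaining HIP value was Oprl1 by ILMN_2807572, which read 7.43, 7.11 and 7.20 under CI-994 against 7.61, 7.63 and 7.41, with a slight overlap (difference −0.30, SE 0.11, 1.23-fold lower, unadjusted p = 0.0165, adjusted p = 1), where 0.67% of all tested probes passed that unadjusted rule. Within the first BeadChip the difference was −0.19 and within the second −0.25, and with BeadChip as a block it was −0.22 (unadjusted p = 0.00581), under the 1.2-fold limit, so that the unadjusted rule was no longer met. CI-994 had 2 of 3 pools on the second BeadChip and vehicle 1 of 3. Choroid plexus markers in HIP (log2 of the summed intensity) read 13.41, 10.38 and 11.28 under CI-994 and 13.41, 13.22 and 11.47 under vehicle. Their part in the Oprl1 difference was not tested. Nor was the rule met by the Tukey test over all treatments. It was also not met without vehicle HIP pool 1, vehicle HIP pool 2 or CI-994 HIP pool 2. The brightest Oprl1 probe read 7.37, 7.46 and 7.43, all below vehicle (7.52, 7.51 and 7.59), a difference of −0.12 (unadjusted p = 0.116), and the remaining probe differed by −0.03. Penk1 in HIP differed by −0.11, −0.10 and 0.02 under Cpd-60, SAHA and CI-994, with overlapping pools.

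**Figure D3:**
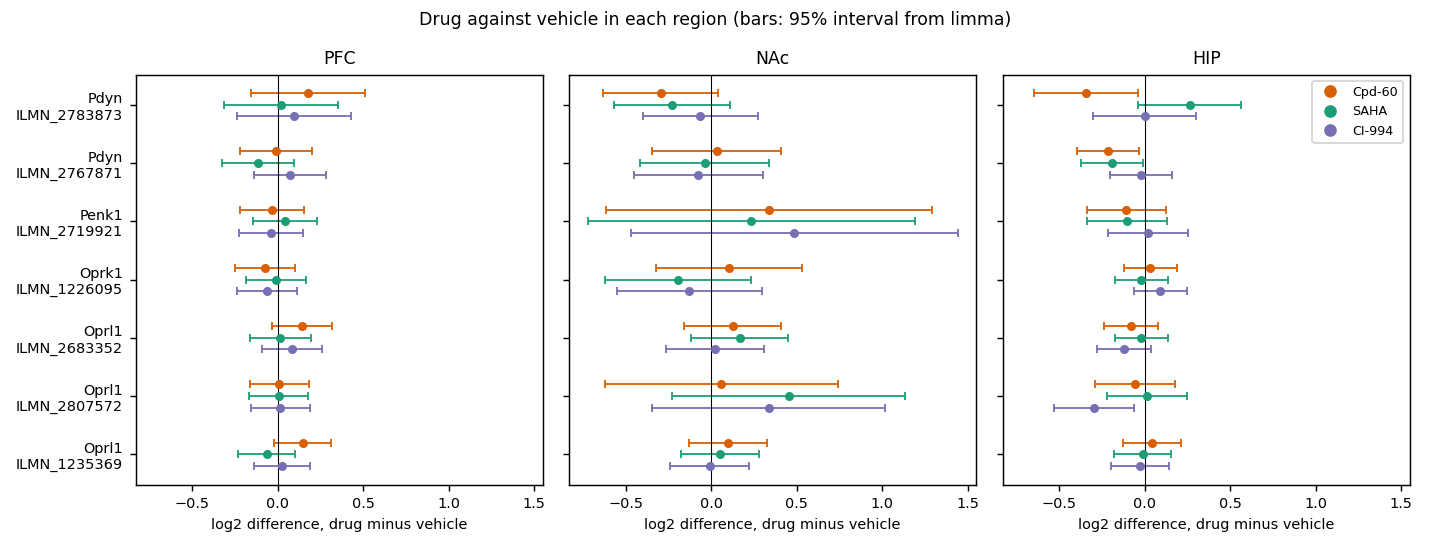
Log2 difference from vehicle for each tested opioid gene probe in each region, with the 95% interval from limma (3 pools per group). Most intervals cover 0; the exceptions, in HIP, are both Pdyn probes under Cpd-60, the dimmer Pdyn probe under SAHA and Oprl1 by ILMN_2807572 under CI-994, and none of these passed adjustment.

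Whether a drug's difference itself varied between regions was tested over 19447 probes with the pool of mice as a random block. None of the 63 member tests passed (limma, adjusted), as for 0% of all probes in each comparison. The lowest unadjusted values were the brighter Pdyn probe under Cpd-60 (HIP difference minus PFC difference −0.52, unadjusted p = 0.0325, adjusted p = 1), Oprl1 by ILMN_2807572 under CI-994 (NAc minus HIP 0.63, unadjusted p = 0.0385, adjusted p = 1) and the brighter Pdyn probe under SAHA (NAc minus HIP −0.50, unadjusted p = 0.0408, adjusted p = 0.719). This fit had no BeadChip term. Oprl1 by ILMN_2807572 was 0.67 higher on the second BeadChip than the first in NAc and 0.23 lower in HIP. CI-994 had more pools on the second than vehicle, so drug and BeadChip are not separated in the value of 0.63.

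Between the BeadChips of NAc, Penk1 and 1 Oprl1 probe differed by more than the largest drug difference of any member (0.48 on the log2 scale). In a fit with treatment as a term, chosen after the values were seen, the second NAc BeadChip differed from the first at 4 of the 9 member probes (7 tested), where 22.9% of all tested probes were called. Penk1 ran from 8.92 to 9.70 (median 9.25) in the 6 arrays of the first and from 9.90 to 10.47 (median 10.27) in the 6 of the second, a 2.00-fold difference without overlap (log2 1.00, SE 0.10, adjusted p = 2.73e-05). Oprl1 by ILMN_2807572 ran from 6.78 to 7.08 and from 7.42 to 8.06, 1.60-fold and again without overlap (0.67, SE 0.10, adjusted p = 0.000631), where 13.5% of all tested probes had none. Both calls held in all 12 fits leaving out 1 array.

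Oprk1 was lower on the second NAc BeadChip by 1.29-fold (7.10 to 7.47 against 7.39 to 7.90, adjusted p = 0.0104), and so was the brightest Oprl1 probe by 1.16-fold (adjusted p = 0.0421). Without Cpd-60 NAc pool 3 neither passed (adjusted p = 0.0539 and 0.078). The Oprk1 call was also lost without CI-994 NAc pool 1 (adjusted p = 0.0503), and the Oprl1 call was lost in 9 of 12 fits leaving out 1 array. The Pdyn probes differed by 0.00 (SE 0.11) and 0.15 (SE 0.12) and did not pass. In PFC 0 of the tested member probes passed (limma, 1 at an unadjusted p under 0.05, with 0.144% of all tested probes called), and in HIP 1 did (Oprl1 by ILMN_2807572, −0.23, adjusted p = 0.047, with 1.19% called). The HIP call was lost in 9 of 12 fits leaving out 1 array. Of 4 choroid plexus markers tested in HIP, 0 were higher and 4 lower on the second BeadChip. Their summed level (log2 of the summed intensity) ran from 12.98 to 13.43 on the first and from 10.38 to 12.39 on the second. Their part in the HIP Oprl1 values was not tested. Whether the BeadChip difference itself varied between regions was not tested.

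Other values moved with the NAc BeadChips beside Penk1, where 22.9% of all tested probes were called. Zic1, a transcription factor gene marking septal and thalamic territory, ran from 6.69 to 7.53 on the first and from 7.69 to 9.31 on the second (adjusted p = 0.0029), the only one called of 6 tested septal, hypothalamic and thalamic markers, whose summed level (log2 of the summed intensity) ran from 9.51 to 10.08 and from 9.66 to 10.56. Of 11 striatal neuron markers 1 was called, lower on the second (Gpr6, −0.40), and their summed level ran from 14.15 to 14.66 and from 13.85 to 14.44. Of 8 genes listed as GABA interneuron markers 2 were higher (Gad1 by 0.83 and Sst by 0.87). The summed level of that list ran from 13.19 to 13.52 and from 13.61 to 13.84. The listed genes need not mark interneurons alone in NAc: under vehicle, Slc32a1 was 1.76 higher there than in PFC and Pvalb 1.98 lower. Which cells the shift came from was not tested. Of 6 cortical glutamatergic markers 2 were lower (Slc17a7 by −0.85 and Neurod2 by −0.22), with summed levels of 9.69 to 10.06 and 9.40 to 9.68. Of 5 hypothalamic peptide genes, Hcrt and Agrp were detected in 0 of 12 NAc arrays, Pmch in 1, Avp in 3 and Oxt in 8; Oxt ran from 6.54 to 8.01 on the first BeadChip and from 6.61 to 6.88 on the second. On the second BeadChip 2 of 6 microglia markers and 2 of 5 endothelial markers were higher. Of 6 astrocyte markers 1 was higher and 1 lower, and of 3 blood markers 1 was lower. Among 9 hippocampal field and 4 choroid plexus markers 0 were called. The share of probes detected was 31.9% to 41.1% on the first and 36.8% to 43.3% on the second. The part of any of these in the Penk1 and Oprl1 values was not tested. Pool 2 lay on the first BeadChip for vehicle and Cpd-60 and on the second for SAHA and CI-994, and in NAc it read 9.20 and 9.39 against 10.10 and 10.47 for Penk1, and 6.93 and 6.90 against 7.44 and 7.55 for Oprl1 by ILMN_2807572. Both were higher on the second, in pools that also differ in treatment.

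**Figure D4:**
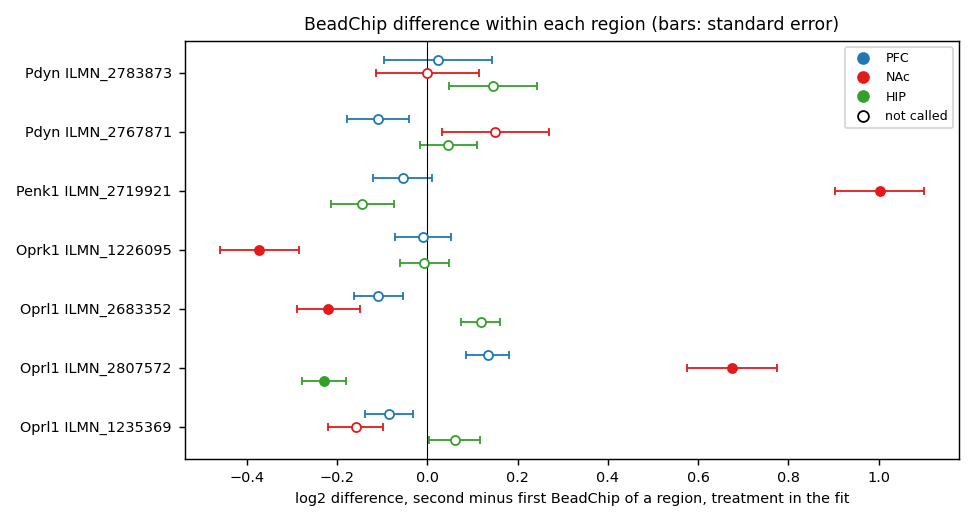
Log2 difference between the second and the first BeadChip of each region for each tested opioid gene probe, with treatment in the fit and bars for the standard error (6 arrays per BeadChip); filled points passed an adjusted p of 0.05. In NAc, Penk1 lies at 1.00 and Oprl1 by ILMN_2807572 at 0.67, while both Pdyn probes lie near 0.

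Over the 36 arrays, the genes most like Pdyn in level were Rgs9 (Pearson r = 0.991), Tac1 (0.989) and Drd1a (0.986), of 18888 genes compared. Those most like Penk1 were Gpr149 (0.981), Gnal (0.981) and Sh3rf2 (0.978), and those most like Oprk1 were Prkch (0.975), Gpr6 (0.968) and Dmkn (0.965). For Oprl1 the highest values were lower: R74862 (0.852), LOC100045542 (0.850) and Uba1 (0.846). The arrays share region, pool and BeadChip, and for Pdyn, Penk1 and Oprk1 the NAc arrays stand apart from the rest, so r follows region. Within groups, with region and treatment means removed, the Pdyn probes correlated at 0.12, against 0.981 over all arrays. The brighter Pdyn probe lay between −0.0863 and 0.0358 with the other members. Larger within-group values were −0.75 for Penk1 with the brightest Oprl1 probe, −0.561 for Penk1 with Oprk1, and 0.587, −0.545 and −0.522 among the Oprl1 probes. Groups hold pools of both BeadChips, so these too are descriptions.

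The wider opioid pathway was examined in 7 lists. Of all tested probes, 20.8% were called between vehicle NAc and PFC (9.59% higher) and 17.9% between NAc and HIP (9.6% higher). Between HIP and PFC the share was 27.3%. The list counts are set beside these shares, and no set test was run. Among 9 tested genes of propeptide processing, 1 was higher and 1 lower in vehicle NAc than PFC: Scg2, a secretory granule protein gene, by 1.21 on the log2 scale and Chgb, another granin gene, by −1.06. Median differences here were −0.05 for the list and 0.00 for all tested probes. Of 9 other neuropeptide genes 5 were higher and 3 lower, led by Tac1, the substance P precursor gene (3.42), and Cck, the cholecystokinin gene (−3.66), with a list median of 0.65. Against HIP, 1 processing gene was higher and 2 lower, and 5 peptide genes were higher and 2 lower, led by Tac1 (4.27) and Cart (3.36).

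Downstream of the receptors, 3 of 10 Gi/o protein genes were higher and 3 lower in NAc than PFC, with Gng7, a gamma subunit gene, 2.82 higher and Gng2 at −0.82. Of 14 effector genes 1 was higher, Prkar2b, a regulatory subunit of protein kinase A (1.48), and 7 were lower, led by the adenylyl cyclase gene Adcy1 (−1.75); the list median was −0.25. Of 15 receptor regulator genes 5 were higher, led by Rgs9, a striatal GTPase-activating protein gene (3.96), and Rgs10 (1.52), and 5 were lower, with a list median of −0.01. Against HIP, 4 Gi/o genes were higher and 1 lower, 2 effectors were higher and 5 lower, and 7 regulators were higher and 1 lower.

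Of 8 peptide-degrading enzyme genes, 1 was higher in NAc than PFC, Mme, which encodes neprilysin (0.53), and 2 were lower, among them Thop1 (−0.29). Of 13 genes for regulators of opioid peptide gene transcription 0 were higher and 2 lower: Kcnip3, which encodes the Pdyn repressor DREAM (−0.64), and Fos (−0.38). Kcnip3 was lower still in HIP (−1.04 against PFC), where each Pdyn probe had its lowest mean, the dimmer without passing against PFC. The part of Kcnip3 in the Pdyn levels was not tested. Against HIP, 2 of the enzyme genes were higher and 1 lower, and 3 of the regulators were higher and 2 lower, Jun among the lower (−1.22). Between HIP and PFC, where 27.3% of all tested probes were called, the widest count was that of receptor regulators. Of 15, 2 were higher and 9 lower, led by Rgs4 (−1.74).

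Under the drugs, 0 of the 72 to 78 pathway genes tested in a region passed adjustment (limma). At an unadjusted p under 0.05 with a 1.2-fold difference, 1 passed under Cpd-60 in PFC (Gng3, 0.31), 2 under Cpd-60 in NAc (Pcsk1n, 0.38, and Trh, 0.27) and 1 under Cpd-60 in HIP (Npy, −0.27). Under SAHA 5 passed in HIP (Gng2, Gng3 and Jun higher, by 0.70, 0.28 and 0.27, and the granin gene Chgb, at −0.31, and Prkaca, at −0.48, lower) and 0 in PFC and NAc. Under CI-994 1 passed, Chgb in HIP (−0.32). All-probe shares by the same rule were 1.11%, 1.78% and 1.53% under Cpd-60 in PFC, NAc and HIP, 0.217%, 0.546% and 3.17% under SAHA, and 0.654%, 0.383% and 0.67% under CI-994.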

How the data were processed

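Total RNA from 3 regions of mice given vehicle, Cpd-60, SAHA or CI-994 was hybridised to Illumina MouseWG-6 BeadChips (12 groups, 3 pools of 2 mice each). The authors deposited the non-normalized intensity of each probe in each array, with a detection p-value per probe. RNA integrity numbers of 7.0 to 8.8 are given. The labels' protocol and design text name different extraction kits. The methods describe 27 arrays, without CI-994, quantile-normalized in GeneSpring (version 11.5.1). The description of each Cpd-60 pool of mice 3 and 4 names mice 1 and 2, and the title was followed. Pools of a treatment hold different mice per the labels, and p-values measure the spread between pools. In fits without a BeadChip term that spread includes differences between BeadChips. The main region fits had no term for the mice that the regions of a pool share.

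Here intensities were quantile-normalized over 36 arrays, normalized values under 1 were set to 1, and log2 was taken (R 4.3.3, limma 3.58.1). Probes entered a test if any group in that fit had a detection p no higher than 0.2 on each of its 3 arrays, after the threshold in the methods. Tests were limma's lmFit and eBayes with Benjamini-Hochberg adjustment over all tested probes. Calls used an adjusted p under 0.05, or, after the methods, an unadjusted p under 0.05 with 1.2-fold. All member probes were named. Of the lists, called genes with the largest 2 differences in region comparisons were named, and in drug comparisons those past the unadjusted rule without overlap, at most 3 a list; Pcsk1n and Prkaca, outside that rule, were named after their values were seen. The 3 genes with the highest r were named as most like a member. Array number and signal over background limit precision. A level counted as a bound where detection p exceeded 0.01 in every array of a group. Members and lists were chosen with earlier results of these data known. Regions of a pool come from the same mice. Same-mouse arrays of other regions deviated from their group means with r from −0.462 to 0.562 (median −0.02). Alternatives were neqc normalization (offset 16), no filter or a stricter one, blocks for pool and BeadChip, other sets of arrays and leaving out each array. The oligodendrocyte markers are not reported here. The fitting code was tested on simulated data.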

Additional observations from a re-analysis of the deposited data

How the results depend on the processing

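All NAc calls of Pdyn, Penk1 and Oprk1 against PFC and HIP (Oprk1 under Cpd-60 and SAHA tested only through its NAc arrays) kept their direction and passed under every alternative run. With the replicate block (the same mice), the Vehicle NAc-HIP call of Oprl1 ILMN_2807572 was lost (adjusted p = 0.0517), member calls between HIP and PFC went from 1 to 0 under SAHA and from 2 to 1 under CI-994, and no other regional call changed. With BeadChip as a random block those counts were 1 under Cpd-60 (from 2), 0 under SAHA and 1 under CI-994; without a detection filter CI-994 gave 1; with neqc or a detection limit of 0.01 SAHA gave 2. With neqc the HIP BeadChip count was 0 (from 1). By the unadjusted rule with 1.2-fold, Cpd-60 gave 1 member probe over the regions. It gave 2 with neqc, with the replicate block (here a shared number only) or with a BeadChip block. By the Tukey test, run with the CI-994 arrays that the methods lack, it gave 0. SAHA gave 0, 1 with neqc, over 27 arrays without CI-994 or in the 9-array fit, and 2 with the replicate block. CI-994 gave 1, 2 with the replicate block, and 0 with the BeadChip block or the Tukey test. After adjustment each drug gave 0 in every fit. The causes were not tested. Leaving out 1 array at a time, the member calls ranged under vehicle from 4 to 5 (NAc-PFC), 1 to 2 (HIP-PFC) and 4 to 5 (NAc-HIP); under Cpd-60 from 4 to 4, 1 to 3 and 4 to 5; under SAHA from 4 to 5, 0 to 0 and 4 to 4; under CI-994 from 4 to 6, 0 to 2 and 4 to 5. The NAc counts under Cpd-60 and SAHA include Oprk1, which is not counted in the results above because of the criterion. For the BeadChips the member calls ranged from 0 to 0 in PFC, 2 to 5 in NAc (2 without Cpd-60 NAc pool 3) and 0 to 1 in HIP. By the unadjusted rule they ranged from 0 to 2 for Cpd-60, 0 to 1 for SAHA and 0 to 2 for CI-994. Same-numbered pools of different mice correlated with a median of 0.169 (15 of 27 pairs over 0.1). Oprm1 and Pnoc were at the limit of detection.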
